A study of Mus musculus with 81 samples.

Results

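The type I interferon receptor was blocked with an antibody in cultures of wild-type (WT) bone marrow-derived macrophages (BMDMs), and the RNA of these cultures was compared with that of cultures given a control antibody. The comparison rests on 6 of the 81 RNA-seq libraries of the series, 3 with IFNAR1 antibody and 3 with control antibody, chosen by genotype and treatment as their labels give them. WT stands for mice with both histone H3.3 genes floxed (H3f3a fl/fl:H3f3b fl/fl) and no LysM-cre, so that H3.3 was intact, and by the study's methods they were young adult C57BL/6 mice of both sexes. Bone marrow cells were grown into BMDMs in medium conditioned by L929 cells, and a mouse monoclonal antibody to IFNAR1, or a mouse IgG1 κ isotype control, was given from the start of culture and renewed. The labels call the libraries of a group biological replicates. Another 12 libraries of the same experiment were used beside them: 3 WT libraries grown with no antibody, and 9 libraries of cKO mice (the same floxed alleles with LysM-cre, which deletes H3.3 in myeloid cells) under the same 3 treatments. No library had interferon added.

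Type I interferons bind a receptor made of IFNAR1 and IFNAR2. The kinases JAK1 and TYK2 on the receptor phosphorylate STAT proteins, among them STAT2, which join IRF9 to form ISGF3, and ISGF3 binds the interferon-stimulated response element (ISRE) in front of interferon-stimulated genes. Macrophages release small amounts of interferon-β without infection, and this tonic signal is known to set the resting level of Irf9, Irf7 and antiviral genes such as the Oas family. An antibody to IFNAR1 keeps interferon from its receptor and leaves the receptor gene in place.

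The control antibody libraries stood apart from both other WT groups, and this bears on every value given here. They had 10955509 to 17913002 reads on genes, against 18680746 to 24552967 without antibody and 19964652 to 27295864 with IFNAR1 antibody. Mitochondrial genes took 0.333% to 0.674% of their reads, 1.17% to 1.30% without antibody and 1.07% to 2.12% with IFNAR1 antibody. The control antibody libraries were also more alike, with a chi-square per degree of freedom of 4.39 to 7.44 between replicates, against 36.6 to 134 and 84.1 to 180 in the other groups, so that none was a duplicate of another. On the first principal component of the 9 WT libraries, which held 57.3% of the variance, they lay at -52.2, -56.6 and -62.2, the libraries with no antibody at -13.9, 63.8 and 17.9, and those with IFNAR1 antibody at 49.1, 94.1 and -40.1. On this component replicate 3 with IFNAR1 antibody therefore lay nearest the controls. On the second component, with 15.2% of the variance, it lay at -20.3, near replicates 1 and 3 with no antibody (-33.9 and -29.6). Every control library, replicate 2 with no antibody and replicate 2 with IFNAR1 antibody (47.2, the highest) had a positive value there. Replicate 1 with IFNAR1 antibody lay at -31.7. The reads on genes (20017249) and mitochondrial share (1.35%) of replicate 3 with IFNAR1 antibody were also above those of every control library. Whether depth, mitochondrial share or the unequal spread had a part in the differences was not tested.

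Of 17191 genes tested, 1174 (6.83%) were higher and 526 (3.06%) lower with IFNAR1 antibody than with control antibody, at an adjusted p under 0.05. Values are CPM (counts of a gene for every 1e+06 counts on genes), scaled with the trimmed mean of M-values (TMM), and log2 fold changes and adjusted p are those of edgeR's quasi-likelihood test with Benjamini-Hochberg adjustment over all genes tested, in a model of all 18 libraries. The error of a log2 fold change is its standard error (SE). The change was at least 2-fold in 830 of the higher and 149 of the lower genes, and the median log2 fold change over all genes was 0.01. In 2680 genes (15.6%) every IFNAR1 antibody library was above every control antibody library, and in 2953 (17.2%) every one was below. The counts depended on the libraries used. Without replicate 3 of the IFNAR1 antibody 6488 genes were called, 3323 of them higher, without replicate 1 there were 492 and without replicate 2 729. Leaving out 1 control antibody library gave 704 (replicate 1), 290 (replicate 2) or 470 genes (replicate 3). With only the 6 libraries compared in the model no gene was called, the smallest adjusted p was 0.0642, and 3890 genes had an unadjusted p under 0.05. DESeq2 called 3086 genes on all 18 libraries.

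**Figure D1:**
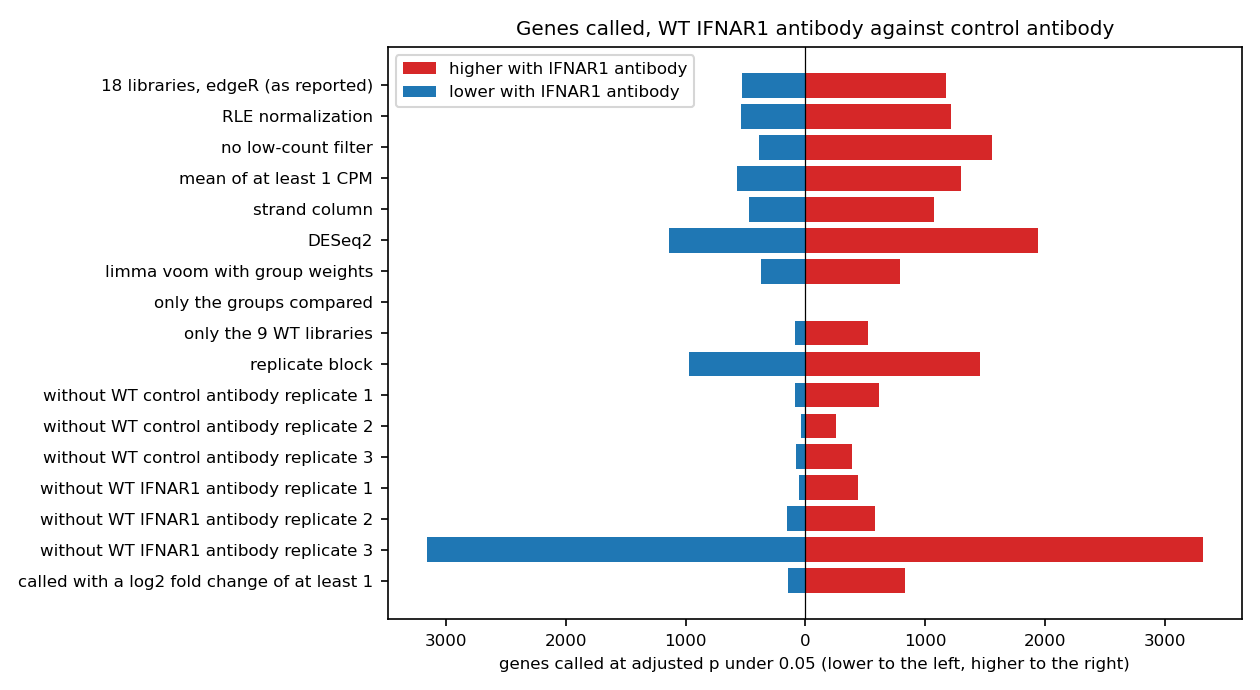
Genes called higher (bars to the right) and lower (bars to the left) with IFNAR1 antibody than with control antibody in WT, for the 18-library edgeR fit and each alternative. The bars reach from 0 genes with only the 6 libraries compared to 3323 higher and 3165 lower without replicate 3 of the IFNAR1 antibody.

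The third WT group, with no antibody, was compared with each of the other groups. Control antibody against no antibody gave 562 genes higher (3.27%) and 968 lower (5.63%). This count too moved with single libraries, from 106 in all without control replicate 2 to 2425 without replicate 1 of no antibody. It came from the model without a replicate block, as did later values of control against no antibody unless a block is named. Replicate numbers appeared to pair these groups, and with them as a block more genes were called in each direction. IFNAR1 antibody against no antibody gave 0 calls (0%) with edgeR, where 878 genes had an unadjusted p under 0.05, 32 with DESeq2 and 0 with limma. These comparisons share libraries with each other, and the groups differ in spread, so 0 calls does not show that the groups were alike. For many of the genes named here the levels with no antibody are therefore printed too, since a gene can be lower with IFNAR1 antibody than with control antibody either because the IFNAR1 libraries lay below those with no antibody, or because the control libraries lay above them.

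The receptor and most of its signal transducers differed little. Of 12 tested receptor and transducer genes of type I, II and III interferons, Irf9 was lower (8.33%, beside 3.06% of all genes) and none was higher, with a median log2 fold change of -0.04. Ifnar1 itself (chr16:91485238-91507441 in GRCm38), the target of the antibody, had 241, 240.2 and 241 CPM with control antibody and 243, 179 and 232 CPM with IFNAR1 antibody. The groups overlapped, with only replicate 2 of the IFNAR1 antibody well below the others, and the difference was -0.14 ± 0.12 on the log2 scale, adjusted p = 0.422. An antibody acts on the protein, so this transcript does not check the treatment. Ifnar2, the partner chain, had 86.7, 88.2 and 81.2 CPM with control against 77.9, 105 and 75.8 CPM with IFNAR1 antibody, a log2 fold change of 0.01 ± 0.14 and adjusted p = 0.955.

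Irf9 (chr14:55603571-55610030), the DNA-binding subunit of ISGF3, fell. It had 41.3, 35.2 and 39.1 CPM with control antibody and 18.4, 15.3 and 22.5 CPM with IFNAR1 antibody. Every IFNAR1 antibody library was below every control library and also below the 52.7, 30.6 and 30.3 CPM of the libraries with no antibody. Mean levels were 38.5 ± 3.07 and 18.7 ± 3.599 CPM (SD, n = 3), a log2 fold change of -1.04 ± 0.23 with adjusted p = 0.0139. Exons of Irf9 overlap those of Rnf31 on the same strand, and reads in the shared part are ambiguous and were left out of the counts. Stat2 had 31.01, 30.2 and 33.9 CPM with control against 29.02, 28.2 and 26.8 CPM with IFNAR1 antibody, groups that did not overlap but lay close, with a log2 fold change of -0.18 ± 0.21 and adjusted p = 0.573.

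Interferon-stimulated genes were mostly not called, and those that were included members of the 2'-5' oligoadenylate synthetase (Oas) family. Of 74 tested canonical interferon genes 6 were lower (Slfn5, Oas1g, Oas1a, Irf9, Oas2 and Oasl2), which is 8.11% beside 3.06% of all genes, and 2 were higher (Uba7 and Cxcl10), which is 2.70% beside 6.83%. Their median log2 fold change was -0.16, against 0.01 over all genes. In 22 every IFNAR1 antibody library was below every control and in 11 every one was above, beside 17.2% and 15.6% of all genes. Against no antibody the same list had a median log2 fold change of -0.65 with IFNAR1 antibody, with no gene called. With control antibody the median was -0.58, with 12 genes lower, beside 5.63% of all genes. All these comparisons share libraries. Without replicate 3 of the IFNAR1 antibody 18 canonical genes were lower and 11 higher. In that setting 6488 genes were called in all, against 1700 with every library, so 3.06% and 6.83% are not the background of these counts. Without any 1 of the other libraries 2 or 3 were lower and 0 or 1 higher.

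Slfn5 (chr11:82951349-82964840), a schlafen family gene induced by type I interferon, had 49.98, 51.1 and 53.5 CPM with control antibody and 8.803, 11.7 and 17.3 CPM with IFNAR1 antibody. The groups were far apart and the controls close together, while the libraries with no antibody, at 45.1, 26.4 and 22.6 CPM, lay between them. The mean was 4.09-fold lower with IFNAR1 antibody, a log2 fold change of -2.03 ± 0.29 and adjusted p = 0.00258, and the call held in 14 of 15 alternative settings and was lost with only the 6 libraries compared (adjusted p = 0.0642). Its exons overlap those of the antisense gene Slfn5os, and in counts without strand reads in the shared part are ambiguous and were left out.

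The Oas enzymes make 2'-5' oligoadenylates on double-stranded RNA. Oas1a (chr5:120896256-120907521) had 13.4, 11.4 and 10.2 CPM with control and 4.497, 4.14 and 5.97 CPM with IFNAR1 antibody, with no overlap. Its log2 fold change was -1.26 ± 0.28, adjusted p = 0.0125. The level with no antibody, 17.97, 14.4 and 10.6 CPM, reached into the control range and lay above all IFNAR1 antibody libraries. Oas1g, the near-identical neighbour in the Oas1 cluster, had 3.99, 3.002 and 3.11 CPM with control against 0.577, 0.126 and 0.879 CPM with IFNAR1 antibody, a log2 fold change of -2.60 ± 0.52 and adjusted p = 0.00736, but reads that fit both copies were not counted, so the split between them is uncertain. The IFNAR1 antibody values of Oas1g stand on few reads, since 3 counts are worth 0.115 to 0.188 CPM in these libraries.

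Oas2 and Oasl2 were lower with IFNAR1 antibody than with control antibody, and their controls lay below the libraries with no antibody. Oas2 (chr5:120730333-120749853) had 25.3, 19.5 and 10.9 CPM with no antibody, 6.23, 6.12 and 5.03 CPM with control antibody and 1.73, 1.07 and 1.94 CPM with IFNAR1 antibody, and no group overlapped another. The step from control to IFNAR1 antibody was -1.85 ± 0.51 on the log2 scale (adjusted p = 0.0339), and the step from none to control was -1.68 ± 0.47 (adjusted p = 0.0382). Oasl2 (chr5:114896936-114912234), an Oas-like gene, had 27.3, 14.5 and 6.73 CPM, then 6.23, 3.91 and 5.12 CPM, then 0.577, 0.816 and 2.27 CPM in the same order, again without overlap, and a step from control to IFNAR1 antibody of -2.05 ± 0.60 (adjusted p = 0.0433). The step of Oasl2 from none to control, -1.67 ± 0.53 on the log2 scale, was not called (adjusted p = 0.0594), and was with the replicate number as a block (-1.63, adjusted p = 0.0458). Oas3, the third Oas gene, had 23.8, 17.8 and 15.1 CPM with control against 8.49, 6.34 and 6.38 CPM with IFNAR1 antibody, apart but not called (-1.42 ± 0.50 on the log2 scale, adjusted p = 0.0752). From none to control the step of Oas3 was -1.48 on the log2 scale (adjusted p = 0.0681), and -1.43 with the replicate number as a block (adjusted p = 0.0124). The Oas2 call was lost when any 1 library was left out except replicate 3 of the IFNAR1 antibody, and so was that of Oasl2, whose adjusted p ranged over 0.0033 to 0.39. For Irf9 and Oas1a replicates 1 and 2 of the IFNAR1 antibody and replicate 1 of the control were each needed, with replicate 3 of the control for Irf9 and replicate 2 for Oas1a (adjusted p 0.00103 to 0.0717 and 0.000735 to 0.13).

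Both canonical genes that rose were low in the control antibody libraries. Uba7, the activating enzyme of ISG15 conjugation, lies outside the rule for named genes and was chosen after its values were seen. It had 24.8, 21.5 and 22.6 CPM with no antibody, 11.5, 13.5 and 15.6 CPM with control and 28.1, 24.7 and 23.3 CPM with IFNAR1 antibody, and its log2 fold change was 0.91 ± 0.21 (adjusted p = 0.0176). Cxcl10, a chemokine for T cells, had 0.56, 0.283 and 0.0915 CPM with control and 0.846, 2.01 and 1.29 CPM with IFNAR1 antibody, a log2 fold change of 2.05 ± 0.63 at adjusted p = 0.0498. The lowest control value of Cxcl10 is under the 0.275 CPM of 3 counts in that library, and its call was lost when any 1 library but replicate 3 of the IFNAR1 antibody was left out.

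Irf7 and Ifi204 were not called. Irf7, which amplifies the interferon response, had 13.4, 13.9 and 6.08 CPM with no antibody, 5.11, 3.12 and 3.48 with control and 2.92, 4.45 and 1.897 with IFNAR1 antibody, and its log2 fold change against control was -0.35 ± 0.64 (adjusted p = 0.717). The antibody groups overlapped. From none to control the step of Irf7 was -1.51 on the log2 scale (adjusted p = 0.121), and -1.46 with the replicate number as a block (adjusted p = 0.0112). Ifi204, a DNA-sensing PYHIN protein gene, had 24.1, 20.5 and 19.9 CPM with control against 9.69, 11.7 and 17.9 CPM with IFNAR1 antibody, without overlap, and a log2 fold change of -0.71 ± 0.29 (adjusted p = 0.102).

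**Figure D2:**
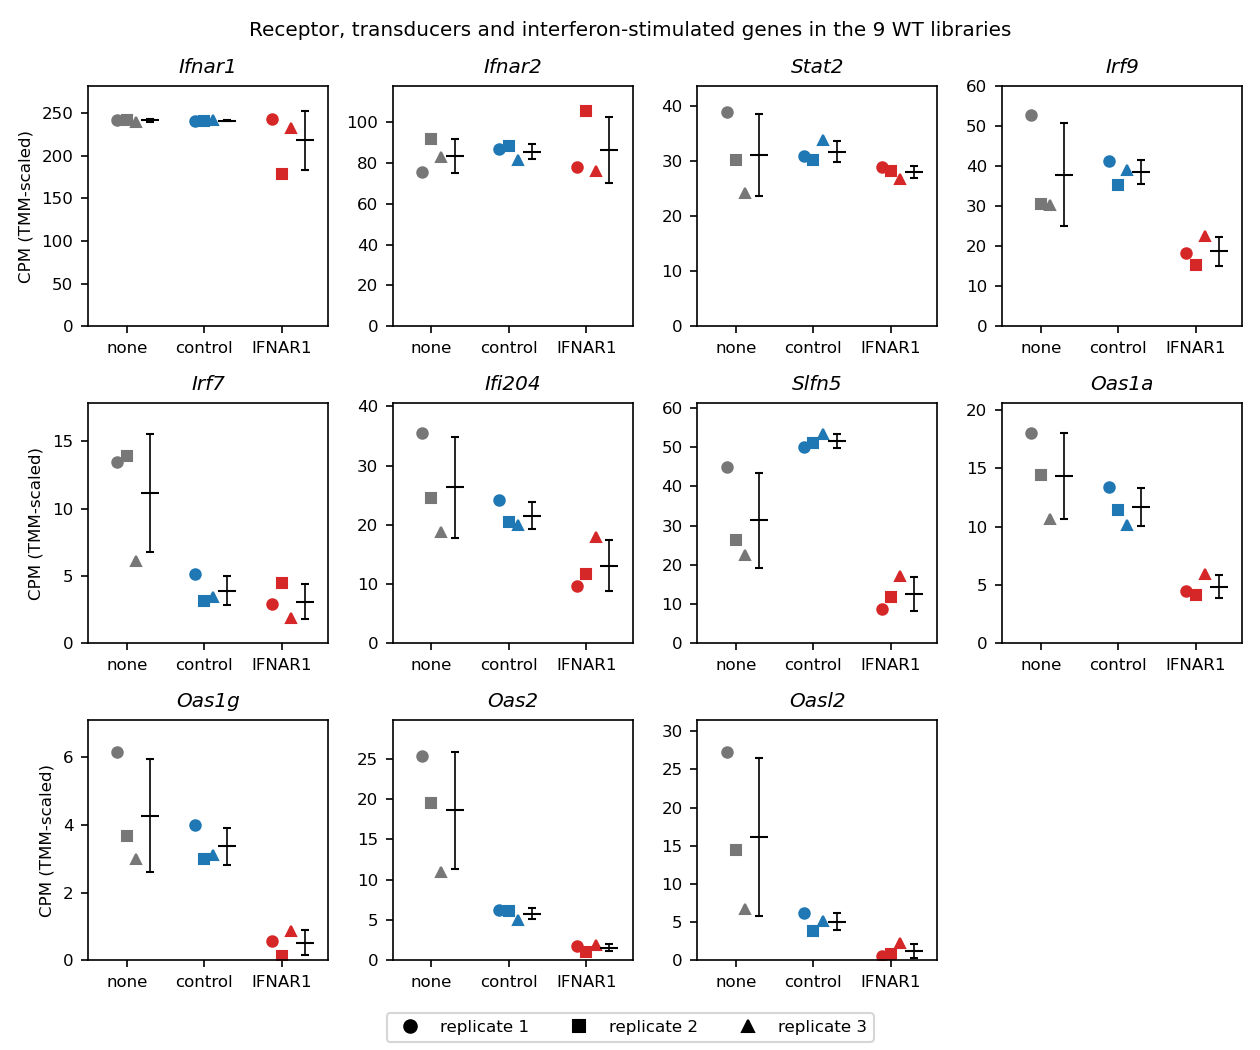
CPM (TMM-scaled, linear axes from 0) of receptor, transducer and interferon-stimulated genes in the 9 WT libraries, with 1 symbol for each replicate and the mean and SD of each group. Slfn5 and Irf9 fall from control to IFNAR1 antibody, the 3 groups of Oas2 and of Oasl2 do not overlap and lie in the order none, control, IFNAR1, and Ifnar1 stays between 178.7 and 243.0 CPM.

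Promoters of genes lower with IFNAR1 antibody are shown where they hold the element that ISGF3 binds, since this is the part of the gene through which the blocked pathway is known to act. Windows of 300 bases, from 250 before to 50 after the RefSeq gene start (GRCm38.p6), were searched on both strands for the ISRE core (GAAANNGAAA) and for the GAS element of STAT dimers (TTCNNNGAA). Among the 12 largest falls that had a window only Slfn5 held either element, 155 bases before the gene start, in a window that lies downstream of the earlier GENCODE start. Oas1a (2 overlapping ISRE cores 20 and 14 bases before the start, 1 GAS 98 before) and Stat2 (1 ISRE on the other strand, 222 before) were added after their values were seen, as a called and an uncalled interferon gene for comparison. Capitals mark the elements, and each strand is that of the gene.

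Slfn5, chr11:82951852-82952151, plus strand: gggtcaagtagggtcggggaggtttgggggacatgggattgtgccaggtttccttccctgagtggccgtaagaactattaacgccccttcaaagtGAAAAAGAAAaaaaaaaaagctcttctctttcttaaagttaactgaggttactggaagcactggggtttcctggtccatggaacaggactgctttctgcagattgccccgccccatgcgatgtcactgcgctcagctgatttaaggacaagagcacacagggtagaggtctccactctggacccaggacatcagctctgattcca

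Oas1a, chr5:120907476-120907775, minus strand: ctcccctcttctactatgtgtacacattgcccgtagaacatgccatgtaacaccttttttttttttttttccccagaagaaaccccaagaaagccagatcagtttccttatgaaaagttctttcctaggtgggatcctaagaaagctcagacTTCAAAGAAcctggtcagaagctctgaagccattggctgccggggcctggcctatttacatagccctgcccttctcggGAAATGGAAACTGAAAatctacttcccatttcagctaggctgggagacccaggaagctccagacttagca

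Stat2, chr10:128270248-128270547, plus strand: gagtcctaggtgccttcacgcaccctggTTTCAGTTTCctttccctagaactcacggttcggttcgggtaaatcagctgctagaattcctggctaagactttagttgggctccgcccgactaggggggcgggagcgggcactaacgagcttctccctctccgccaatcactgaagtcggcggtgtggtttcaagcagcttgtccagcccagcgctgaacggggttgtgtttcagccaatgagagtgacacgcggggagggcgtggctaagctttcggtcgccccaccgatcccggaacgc

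No such letters were found in the windows of Irf9, Oasl2, Irf7, Cav1, Marco, Mmp14, Plin2, Arhgef12, Maoa and Ptgfrn. An ISRE core was in 34 of 69 windows (49.3%) of the tested canonical interferon genes, in 20 of 549 (3.64%) of all genes lower with IFNAR1 antibody, in 37 of 1038 (3.56%) of those higher, and in 3.44% of all 32851 windows. A GAS element was in 13%, 8.38%, 6.65% and 8.30% in the same order. Genes lower with IFNAR1 antibody thus held ISRE cores at about the share of all promoters.

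Transcripts of the ligands were at the edge of detection. Of 20 type I and III interferon genes 8 had any count in the 9 WT libraries, and Ifnb1 had 0 to 3 counts in a library. Only Ifnk passed the filter on low counts, with 0.63, 1.76 and 1.19 CPM with control and 0.231, 0.126 and 1.06 CPM with IFNAR1 antibody, overlapping groups and adjusted p = 0.216. A count of 0 allows up to 3 counts, which is 0.115 to 0.275 CPM over the 6 libraries, for counting error alone.

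A few sensors of foreign nucleic acid were called, in both directions. Of 16 tested RNA-sensing genes Oas1a and Oas2 were lower and 1 was higher, with a median log2 fold change of -0.24. Of 13 DNA-sensing genes 3 were higher and none lower, beside 6.83% and 3.06% of all genes, while the list median was -0.13. Aim2, an inflammasome receptor for DNA, had 26.1, 29.3 and 30.2 CPM with control and 74.7, 74.8 and 31.5 CPM with IFNAR1 antibody (1.08 ± 0.31 on the log2 scale, adjusted p = 0.0422), and Cgas, which makes the messenger cGAMP, had 8.61, 6.34 and 5.95 CPM with control against 19.5, 26.4 and 10.1 CPM with IFNAR1 antibody (1.42 ± 0.42 on the log2 scale, adjusted p = 0.044). Replicate 3 of the IFNAR1 antibody lay just above the controls for both. Mre11a, a DNA repair nuclease, was the third (0.80 ± 0.23 on the log2 scale, adjusted p = 0.0423). Each of these 3 calls was lost when any 1 library but replicate 3 of the IFNAR1 antibody was left out.

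Among 9 interferon regulatory factors Irf4 rose and Irf9 fell (11.1% each, beside 6.83% higher and 3.06% lower of all genes). Irf4, a factor of alternatively activated macrophages and lymphocytes, had 0.7, 0.8495 and 1.19 CPM with control and 8.11, 6.27 and 2.45 CPM with IFNAR1 antibody, and 3.98, 3.67 and 5.97 CPM with no antibody. The difference was 2.63 ± 0.59 on the log2 scale (adjusted p = 0.0132), and the call was lost without control replicate 1 or 2 or replicate 1 of the IFNAR1 antibody. Irf1 had 16.1, 16.5 and 13.4 CPM with control against 55.9, 111 and 16.7 CPM with IFNAR1 antibody, wide in the latter, and was not called (adjusted p = 0.0587). Of 19 feedback inhibitors of interferon signalling Socs1, which binds the JAK kinases, was higher, at 6.46, 11.2 and 1.85 CPM against 1.47, 1.53 and 1.46 CPM with control (2.11 ± 0.63 on the log2 scale, adjusted p = 0.0446), a call lost without any 1 library but replicate 3 of the IFNAR1 antibody. It was 5.26% of that list, beside 6.83% of all genes called higher. None of 15 guanylate-binding proteins and immunity-related GTPases was called. Their median log2 fold change was -0.60, ranged from -0.86 (without replicate 3 of the IFNAR1 antibody) to -0.19 (without replicate 2) with 1 library left out, and was 0 without the filter on low counts. In 2 of them every IFNAR1 antibody library was below every control and in 3 every one was above, beside 17.2% and 15.6% of all genes.

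Few antigen presentation genes were called. None of 20 genes of MHC class I and antigen processing was called. Their median log2 fold change was 0.58, which became 0.26 without replicate 2 of the IFNAR1 antibody and 0.82 without replicate 3. Tap1, a subunit of the peptide transporter, was at 21.9, 22.5 and 21.1 CPM with control and 77.6, 84.1 and 23.3 CPM with IFNAR1 antibody (adjusted p = 0.0837). Of 9 MHC class II genes 2 were higher (22.2%, beside 6.83% of all genes). H2-Ob, a chain of the modulator H2-O, had 3.099, 3.67 and 3.34 CPM with no antibody, 0.21, 0.113 and 0.0915 CPM with control and 4.69, 4.08 and 1.62 CPM with IFNAR1 antibody. Control was at or under the level of 3 counts in every library, so that the size of the change is uncertain, while both other groups were clearly above it, with a log2 fold change of 4.56 ± 0.65 and adjusted p = 0.00258. H2-DMa, a chain of the peptide exchanger H2-M, had 13.7, 10.99 and 12.5 CPM with control against 23.4, 35.95 and 17.3 CPM with IFNAR1 antibody (1.04 ± 0.25 on the log2 scale, adjusted p = 0.018), a call lost without control replicate 2 or 3 or replicate 2 of the IFNAR1 antibody.

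**Figure D3:**
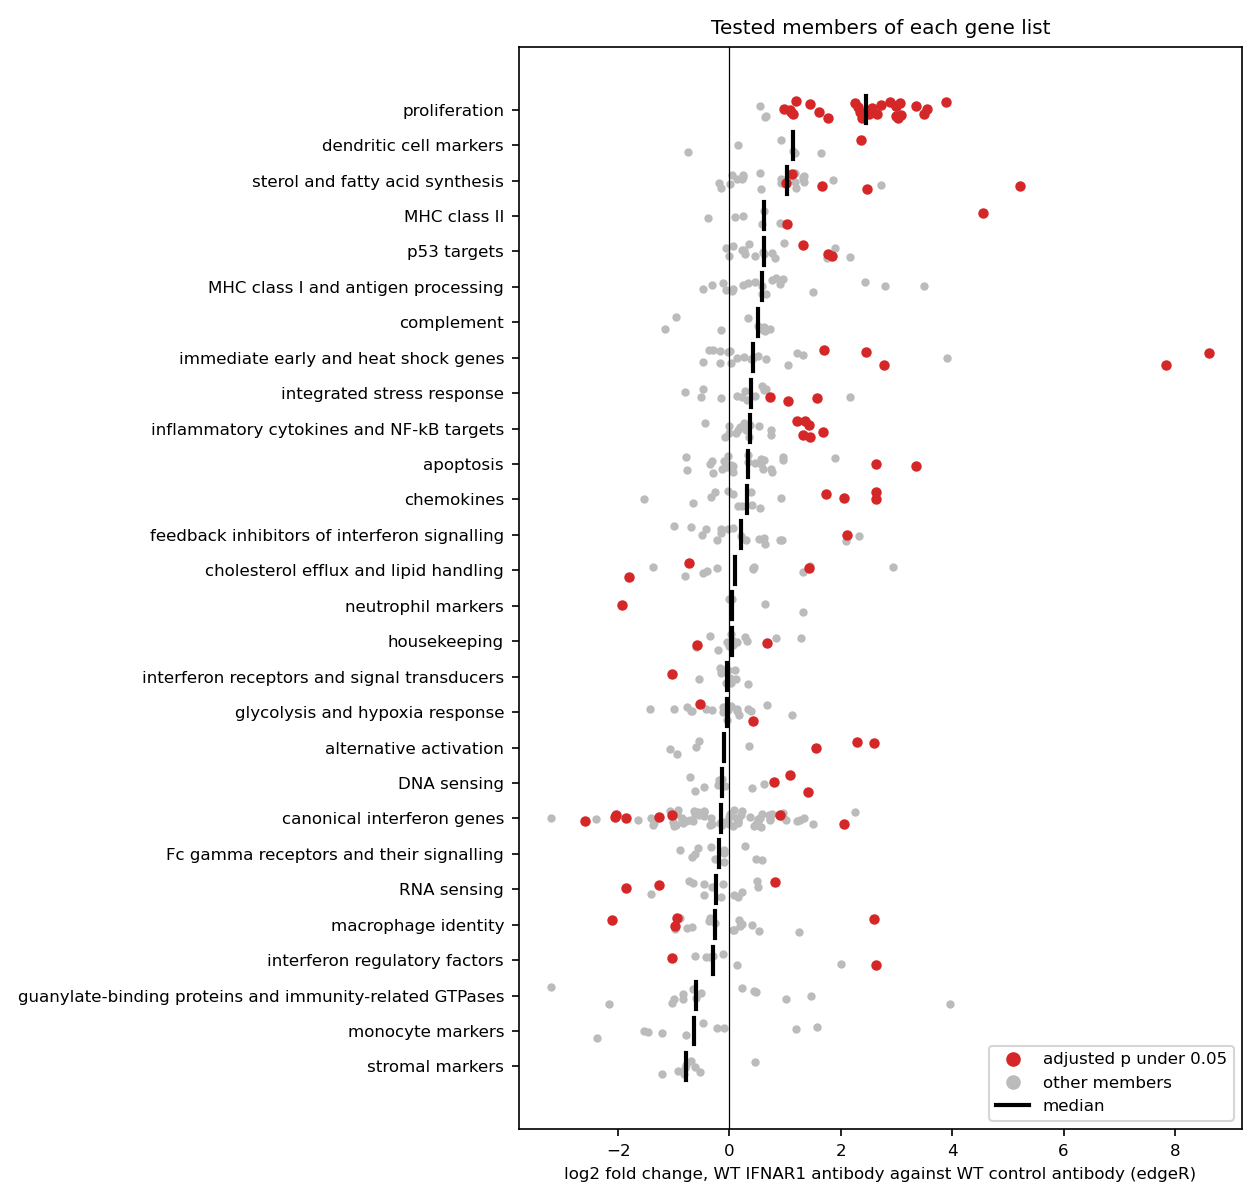
Log2 fold change (IFNAR1 antibody against control antibody, edgeR) of each tested member of the gene lists, red where the adjusted p is under 0.05, with the list median as a black bar. Proliferation genes lie to the right with a median of 2.45, and canonical interferon genes spread to both sides around -0.16.

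Of the lists examined, proliferation genes had the highest share of calls. Of 30 tested 27 were higher with IFNAR1 antibody (90.0%, beside 6.83% of all genes) and none lower, with a median log2 fold change of 2.45. Against no antibody 21 of the 30 were lower with control antibody (median -1.73), beside 5.63% of all genes. None was called with IFNAR1 antibody against no antibody (median 0.72), in comparisons that share libraries. Mki67, a protein of dividing cells, had 559.9, 536 and 532 CPM with no antibody, 179, 73 and 83.7 CPM with control antibody and 1098, 1146 and 424 CPM with IFNAR1 antibody. The control libraries were lowest, replicate 3 of the IFNAR1 antibody lay a little below the libraries with no antibody, and its replicates 1 and 2 lay above them. The log2 fold change against control was 2.99 ± 0.45, adjusted p = 0.00288.

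Genes of mitosis show the pattern by library. Bub1, a spindle checkpoint kinase, had 13.6, 6.12 and 7.23 CPM with control and 61.4, 68 and 30.4 CPM with IFNAR1 antibody (2.57 ± 0.39 on the log2 scale, adjusted p = 0.00291). Ccnb1, cyclin B1 of the G2 to M transition, had 10.3, 3.06 and 4.48 CPM with control against 60.2, 64.4 and 21.1 CPM with IFNAR1 antibody (3.03 ± 0.48 on the log2 scale, adjusted p = 0.00334). Cenpe, a kinetochore motor, had 28.6, 11.8 and 12.2 CPM with control against 145, 124 and 62.9 CPM with IFNAR1 antibody (2.66 ± 0.43 on the log2 scale, adjusted p = 0.00341). None of the 3 overlapped between the groups, and control replicate 1 was the highest control each time. In the list 17 (without control replicate 2) to 27 genes were called when 1 library was left out, 27 without replicate 3 of the IFNAR1 antibody, and none with only the 6 libraries compared, with a median log2 fold change of 2.18 to 2.98 over the libraries left out. In bulk RNA, fewer dividing cells and less RNA per dividing cell cannot be told apart.

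**Figure D4:**
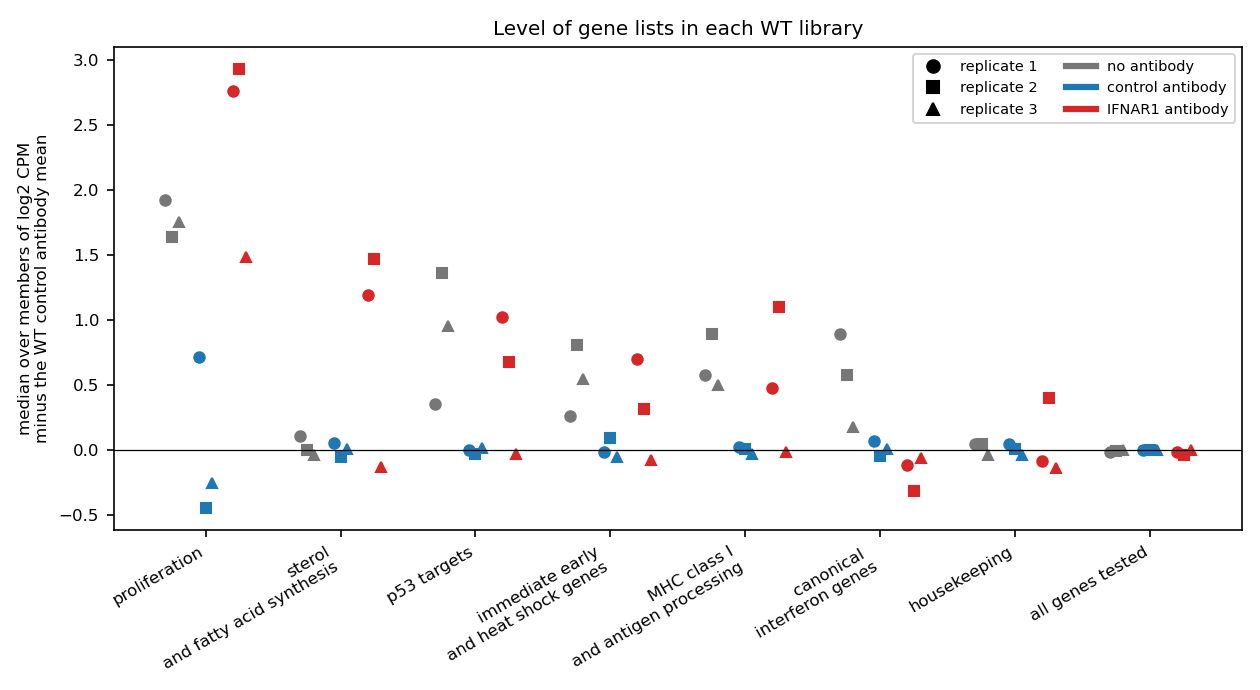
Median over the members of each list of log2 CPM minus the mean of the WT control antibody libraries, for each of the 9 WT libraries. Proliferation genes lie between 1.49 and 2.93 in the IFNAR1 antibody libraries, and sterol and fatty acid genes are raised in replicates 1 and 2 (1.19 and 1.47) and not in replicate 3 (-0.13).

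Genes of sterol and fatty acid synthesis rose in part, with replicate 3 of the IFNAR1 antibody at about the control level. Of 28 tested 5 were higher (17.9%, beside 6.83% of all genes) and none lower, with a median log2 fold change of 1.03. Scd1, a stearoyl-CoA desaturase, had 1.45, 0.8002 and 1.77 CPM with no antibody, 1.26, 0.6796 and 1.65 CPM with control and 78.2, 51.6 and 1.06 CPM with IFNAR1 antibody, so that replicate 3 lay among the controls and the other two far above, with a log2 fold change of 5.22 ± 1.46 (adjusted p = 0.0357). The related Scd2 had 58.9, 51.2 and 57.1 CPM with control against 504, 368 and 50.1 CPM with IFNAR1 antibody, split the same way (adjusted p = 0.0264). Fasn, fatty acid synthase, had 84.5, 74.8 and 79.9 CPM with control against 194, 240.1 and 87.8 CPM with IFNAR1 antibody (1.13 ± 0.32 on the log2 scale, adjusted p = 0.0365), and Nsdhl, a cholesterol synthesis enzyme, 7, 6.57 and 6.68 CPM with control against 25.8, 29.9 and 8.33 CPM with IFNAR1 antibody (1.66 ± 0.40 on the log2 scale, adjusted p = 0.0187). Leaving out replicate 1 or 2 of the IFNAR1 antibody, or any control library, ended each of these calls. The list medians with no antibody were 0.11, 0.00 and -0.03 on the log2 scale, relative to the control mean, and among the cKO libraries with IFNAR1 antibody replicate 1 alone was high, with 1.20, -0.19 and -0.38.

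The 8 largest rises were chosen with every control library below every IFNAR1 antibody library. In all 8 every control library was also below every library with no antibody, and so was replicate 3 of the IFNAR1 antibody. Pcp4l1 had 16.99, 66.5 and 31.4 CPM with no antibody, 2.66, 0.8495 and 1.37 with control and 79.03, 112 and 5.92 with IFNAR1 antibody (5.34 ± 1.26 on the log2 scale, adjusted p = 0.0176). Rasgrp3, an exchange factor for Ras and Rap, had 44.05, 121 and 70.7 CPM, then 5.53, 3.91 and 5.67 CPM, then 181, 139 and 19.4 CPM in the same order (4.50 ± 0.91 on the log2 scale, adjusted p = 0.00795). Replicate 3 of the IFNAR1 antibody was the nearest to the controls for both. The other 6 were Prr11, Ube2c, Hmmr, Cenpf and Ccnb2, which act in or rise with cell division, and Trim59, a ubiquitin ligase, with log2 fold changes of 4.42, 3.89, 3.65, 3.55, 3.50 and 3.43. Pcp4l1 lost its call (adjusted p up to 0.0987) when any 1 library but replicate 3 of the IFNAR1 antibody was left out, and Rasgrp3 and Trim59 without control replicate 2.

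Among the 12 largest falls Slfn5, Oas2 and Oasl2 were lower with IFNAR1 antibody than with no antibody in every library. In Slfn5 and the other 9 every control library was above every library with no antibody, and by the rule of choice above every IFNAR1 antibody library. Plin2, which coats lipid droplets, had 497, 491 and 447 CPM with no antibody, 1824, 1812 and 1936 CPM with control and 217, 329 and 1048 CPM with IFNAR1 antibody. The difference was -1.80 ± 0.46 on the log2 scale (adjusted p = 0.0256), and that of control against no antibody was 1.96 ± 0.47 (adjusted p = 0.021). Cav1, the coat protein of caveolae, had 17.6, 20.2 and 16.7 CPM, then 91.6, 77.3 and 95.1 CPM, then 7.11, 8.09 and 38.4 CPM in the same order, with a log2 fold change of -2.30 ± 0.54 (adjusted p = 0.0173). Replicate 3 of the IFNAR1 antibody lay between the groups in both genes.

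Marco, a scavenger receptor for bacteria and particles, had 8.62, 2.73 and 6.03 CPM with no antibody, 40.1, 27.1 and 48.05 CPM with control and 11.5, 4.45 and 10.6 CPM with IFNAR1 antibody (-2.11 ± 0.58 on the log2 scale, adjusted p = 0.0347). Mmp14, a membrane-bound metalloproteinase, had 14.4, 8.19 and 12 CPM, then 61.5, 67.96 and 51.7 CPM, then 10.1, 11.7 and 25.8 CPM (-1.93 ± 0.46 on the log2 scale, adjusted p = 0.0177). In both all control libraries were above all others. The other 5 were Arhgef12, a guanine nucleotide exchange factor, Fgfr1, a growth factor receptor, Maoa, a monoamine oxidase, Ptgfrn, and Pqlc2, a lysosomal amino acid transporter, with log2 fold changes of -1.53, -1.52, -1.49, -1.49 and -1.47. Most of these calls were lost when 1 library was left out: those of Plin2, Marco, Arhgef12, Fgfr1, Maoa and Pqlc2 without any 1 library but replicate 3 of the IFNAR1 antibody, and the others without replicate 1 or 2 of the IFNAR1 antibody, without control replicate 2, and without control replicate 1 (Mmp14, Ptgfrn) or 3 (Cav1).

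**Figure D5:**
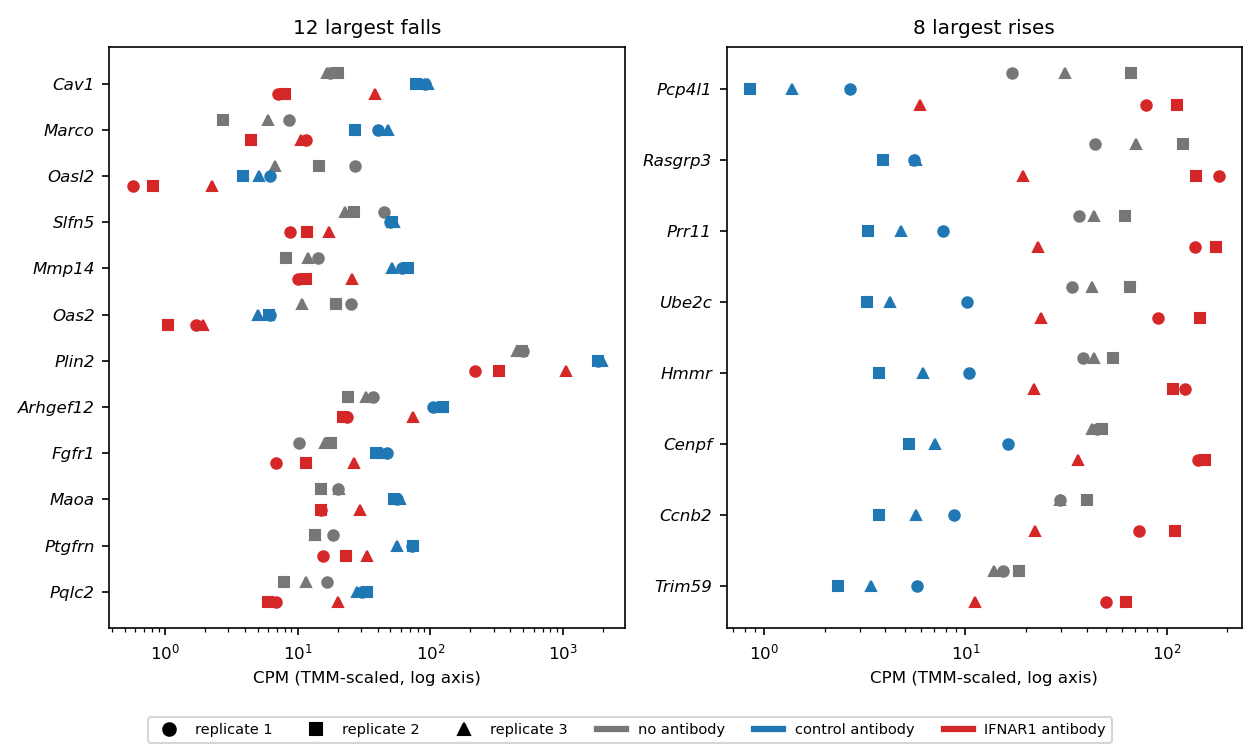
CPM (TMM-scaled, log axis) of the 12 largest falls and 8 largest rises in the 9 WT libraries, coloured by treatment, with 1 symbol for each replicate. The genes were chosen so that control and IFNAR1 antibody libraries do not overlap. Slfn5, Oas2 and Oasl2 are lowest with IFNAR1 antibody, all falls but Oas2 and Oasl2 are highest with control antibody, and the rises are lowest with control antibody.

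Macrophage identity genes summed to 29643, 29746 and 29871 CPM with control and 16663, 23292 and 20213 CPM with IFNAR1 antibody, most of it Lyz2. Of 19 tested identity genes Mrc1 was higher (5.26%) and Cebpa, Marco and Lyz2 were lower (15.8%), beside 6.83% and 3.06% of all genes. Mrc1, the mannose receptor, had 927, 1066 and 994 CPM with no antibody, 177, 188 and 236 CPM with control and 1178, 1941 and 513 CPM with IFNAR1 antibody, a log2 fold change of 2.59 ± 0.34 (adjusted p = 0.00228). Cebpa, a myeloid transcription factor, had 441, 451 and 428 CPM with control against 176, 249.6 and 246 CPM with IFNAR1 antibody (-0.98 ± 0.15 on the log2 scale, adjusted p = 0.00326), and its exons overlap the antisense Gm45091. Lyz2, lysozyme and the host gene of the cre, had 11375, 5282 and 6475 CPM with no antibody, 22954, 23028 and 23380 CPM with control and 8782, 13927 and 13474 CPM with IFNAR1 antibody. Its control libraries were highest and very alike, and the difference was -0.94 ± 0.28 on the log2 scale (adjusted p = 0.0428), lost when any 1 library but replicate 3 of the IFNAR1 antibody was left out. Both H3.3 genes were intact and not called, with H3f3a at 35.7, 36.2 and 37.2 CPM with control against 43.4, 93.8 and 35.3 CPM with IFNAR1 antibody, and H3f3b at 379.9, 399.6 and 344 CPM with control against 295, 298 and 325 CPM with IFNAR1 antibody (adjusted p = 0.198 and 0.524).

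Alternative activation genes split by member. Of 8 tested 3 were higher (37.5%, beside 6.83% of all genes), Mrc1 with the lectins Clec10a and Mgl2. Clec10a had 36.9, 39.2 and 41.8 CPM with no antibody, 7.14, 6.63 and 8.79 CPM with control and 25.8, 25.97 and 14.2 CPM with IFNAR1 antibody (1.55 ± 0.24 on the log2 scale, adjusted p = 0.00302), so that the IFNAR1 antibody libraries lay between. Mgl2 had a log2 fold change of 2.29 ± 0.49 (adjusted p = 0.0109), lost without control replicate 1 or 2. Of 14 genes of cholesterol efflux and lipid handling Plin2 and Cd36 were lower (14.3%) and Lpl higher (7.14%), beside 3.06% and 6.83% of all genes. Cd36, a fatty acid receptor, had 1760, 2109 and 2098 CPM with control against 947, 1075 and 1592 CPM with IFNAR1 antibody (-0.72 ± 0.20 on the log2 scale, adjusted p = 0.0365), and Lpl, lipoprotein lipase, 885, 591 and 711 CPM with control against 2149, 2380 and 1350 CPM with IFNAR1 antibody (1.43 ± 0.37 on the log2 scale, adjusted p = 0.0279). Both calls needed every library but replicate 3 of the IFNAR1 antibody.

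Some chemokine and inflammatory genes were higher with IFNAR1 antibody, and most members of both lists were not called. Of 16 chemokines Ccl4, Ccl3, Ccl12 and Cxcl10 were higher and none lower, and of 20 inflammatory cytokines and NF-κB targets 6 were higher and none lower, beside 6.83% and 3.06% of all genes, with medians of 0.31 and 0.36 on the log2 scale. Ccl4, a chemokine made by macrophages, had 50.6, 32.8 and 36.1 CPM with no antibody, 15.2, 12.6 and 13.4 CPM with control and 58.2, 44.3 and 33.8 CPM with IFNAR1 antibody. The latter overlapped the range with no antibody and lay above every control (1.73 ± 0.23 on the log2 scale, adjusted p = 0.00223). Ccl3 had 21.6, 22.8 and 23.1 CPM with control against 209, 159 and 48.2 CPM with IFNAR1 antibody (2.62 ± 0.47 on the log2 scale, adjusted p = 0.00429), and Ccl12 a log2 fold change of 2.63 ± 0.73 (adjusted p = 0.0357). Il1rn, the antagonist of the interleukin-1 receptor, had 8.26, 6.06 and 9.06 CPM with control against 18.8, 22.1 and 17.7 CPM with IFNAR1 antibody (1.33 ± 0.22 on the log2 scale, adjusted p = 0.00389), and Cd86, a costimulatory ligand, 23.9, 24.7 and 28.3 CPM with control against 78.99, 33.9 and 65.3 CPM with IFNAR1 antibody (1.22 ± 0.24 on the log2 scale, adjusted p = 0.00736). Traf1 and Il10 followed, at log2 fold changes of 1.45 and 1.35. Ccl4, Ccl3 and Il1rn kept their calls without any 1 library, Cd86 lost it without control replicate 2, Traf1 and Ccl12 without any 1 library but replicate 3 of the IFNAR1 antibody, and Il10 without replicate 2 of that group or any control.

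Stress genes showed the spread within the IFNAR1 antibody group. Of 23 immediate early and heat shock genes 5 were higher (21.7%, beside 6.83% of all genes). Egr3, Egr2 and Egr1, early growth response factors, had log2 fold changes of 2.46, 1.70 and 2.78, with Egr1 at 50.5, 84.4 and 44.6 CPM with control and 705, 436 and 90.5 CPM with IFNAR1 antibody, and none of the 3 kept its call without replicate 1 of the IFNAR1 antibody or without control replicate 2 or 3. The heat shock gene Hspa1a had 1.05, 1.02 and 0.732 CPM with control against 2.499, 652 and 0.648 CPM with IFNAR1 antibody, high in replicate 2 of the IFNAR1 antibody alone. Its log2 fold change of 7.83 ± 2.20 (adjusted p = 0.0368) came down to 0.75 without that library, and Hspa1b, its near-identical copy, chosen after its values were seen, was high in the same library. Of 16 genes of the integrated stress response 3 were higher (18.75%, beside 6.83% of all genes), led by Slc7a5, an amino acid transporter, at 44.7, 35.8 and 37.2 CPM with control against 97.1, 76.7 and 69.6 CPM with IFNAR1 antibody (1.05 ± 0.18 on the log2 scale, adjusted p = 0.00389).

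Of 19 p53 targets 3 were higher (15.8%, beside 6.83% of all genes), namely Plk2, Gtse1 and Zmat3 with log2 fold changes of 1.77, 1.85 and 1.32, and of 27 apoptosis genes Bik and Pmaip1, both BH3-only proteins, with 2.63 and 3.35. These 2 of 27 are near the 6.83% of all genes called higher. Pmaip1 had 47, 152 and 85.2 CPM with no antibody, 12.04, 8.89 and 8.603 with control and 170.4, 112 and 20.03 with IFNAR1 antibody, again with replicate 3 closest to control. None of 12 genes of Fcγ receptors and their signalling, which bind antibody, and none of 9 complement genes was called. Of 21 glycolysis and hypoxia genes Hk1 was higher and Pgam1 lower by less than 2-fold (0.42 and -0.53), and of 15 housekeeping genes Ppia was higher and Ywhaz lower (0.67 and -0.58), with a list median of 0.04. In each direction these were 4.76% and 6.67% of the lists, beside 6.83% higher and 3.06% lower of all genes. Every library but replicate 3 of the IFNAR1 antibody was needed for the calls of Plk2, Zmat3, Hk1, Pgam1 and Ppia. Control replicate 2 was also needed for Gtse1, Ywhaz, Bik and Pmaip1, replicate 1 of the IFNAR1 antibody for Gtse1, Ywhaz and Pmaip1, its replicate 2 for Gtse1 and Ywhaz, control replicate 3 for Gtse1 and Pmaip1, and control replicate 1 for Ywhaz.

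Few markers of other cells were called. The 12 stromal markers summed to 56.8, 19.4 and 286 CPM with control and 46.0, 8.03 and 148 CPM with IFNAR1 antibody, high in replicate 3 of both. None of the 9 tested was called. Their median log2 fold change of -0.78 turned to 0.66 without control replicate 3. Of 5 neutrophil markers S100a8 was lower, from 2.38, 1.53 and 2.75 to 0.307, 0.376 and 1.02 CPM, and of 7 dendritic cell markers Itgax, which macrophages express too, was higher, from 3.43, 2.72 and 4.94 to 17.8, 30.6 and 7.91 CPM (adjusted p = 0.0457 and 0.0396), both lost without any 1 library but replicate 3 of the IFNAR1 antibody. They were 20% and 14.3% of these short lists, beside 3.06% lower and 6.83% higher of all genes. None of the 10 monocyte, 3 B cell, 2 T and NK cell, 3 erythroid and megakaryocyte and 2 mast cell and basophil markers tested was called. Monocyte markers summed to 507, 522 and 466 CPM with control and 348, 311 and 541 CPM with IFNAR1 antibody, with a median log2 fold change of -0.63. Their level by library, relative to the control mean, was -0.67, -0.50 and 0.09 on the log2 scale, with replicate 3 again beside the controls. Erythroid and megakaryocyte markers summed to 224, 268 and 267 CPM and to 152, 269 and 207 CPM in the same order, neutrophil markers to 106 to 124 CPM and 96.3 to 128 CPM, and dendritic cell markers to 71.5 to 83.8 CPM and 62.4 to 156 CPM. The median log2 fold change was 1.14 over dendritic cell markers, 0.91 over both T and NK cell markers and -0.27 over erythroid and megakaryocyte markers. B cell, T and NK cell, and mast cell and basophil markers summed to at most 5.22 CPM in any of the 6 libraries. The part of such cells in the differences was not tested.

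Lists drawn from other samples of the study were read against the background. Of 1324 tested genes raised by interferon-γ (log2 fold change above 1) in day 8 WT BMDMs 111 were higher (8.38%) and 46 lower (3.47%) with IFNAR1 antibody, near the shares of all genes, led by St14, Srgn and H2-Ob (higher) and Slfn5 (lower). Of 1391 genes lowered by interferon-γ 246 were higher (17.7%) and 44 lower (3.16%), led by Lmnb1, of the nuclear lamina, with a log2 fold change of 1.44 ± 0.15 (adjusted p = 0.000829), and Nid2, Slc9a9 and Samsn1 with 2.37, 1.53 and 1.88. Against no antibody 61 of these 1391 were higher and 168 lower with control antibody, beside 3.27% and 5.63% of all genes. None was called with IFNAR1 antibody against no antibody, in comparisons that share libraries. Lmnb1, Nid2, Slc9a9 and Samsn1 were all called lower with control than with no antibody (-1.11, -2.52, -1.45 and -1.66 on the log2 scale). Of 341 genes higher in cKO than WT BMDMs with no antibody 11 were higher (3.23%) and 16 lower (4.69%), with a median log2 fold change of -0.32, and by smallest p they were led by Slfn5 (lower), Il1rn (higher), Oas1g (lower) and Oas1a (lower).

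The same comparison in cKO BMDMs gave 402 genes higher (2.34%) and 290 lower (1.69%), 14 of the 74 canonical interferon genes lower and 1 higher, and 20 of the 30 proliferation genes higher. The difference between the WT and the cKO effect was tested as an interaction. With edgeR 0 genes were called (0%), 975 had an unadjusted p under 0.05, and DESeq2 called 50 and limma with group weights 1. Slfn5 had log2 fold changes of -2.03 in WT and -2.31 in cKO, and the difference was 0.28 ± 0.40 (adjusted p = 0.937).

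Among the genes with the smallest interaction p, Slc15a3, a transporter of the lysosome, had 96.6, 96.4 and 100.3 CPM with control against 128, 102 and 129 CPM with IFNAR1 antibody in WT, and 310.3, 299 and 295 CPM against 142, 177 and 189.5 CPM in cKO. In cKO every IFNAR1 antibody library was below every control, and in WT every one was above. With no antibody Slc15a3 had 136.5, 122.2 and 128.1 CPM in WT and 248.7, 265.4 and 256 CPM in cKO. The control libraries were thus the lowest in WT, and the IFNAR1 antibody libraries the lowest in cKO. The difference of log2 fold changes, WT minus cKO, was 1.12 ± 0.17 (adjusted p = 0.0572). Cd24a, a surface glycoprotein, had 29.7, 24.6 and 24.5 CPM with control against 27.2, 26.7 and 21.3 CPM with IFNAR1 antibody in WT and 40.6, 69.9 and 71.9 CPM against 14.4, 15.6 and 15.5 CPM in cKO, a difference of 1.93 ± 0.29 (adjusted p = 0.0572). With no antibody Cd24a had 17.7, 20.95 and 14.2 CPM in WT and 13.5, 13.5 and 17.7 CPM in cKO. In cKO its control libraries were above those with no antibody (2.02 ± 0.21 on the log2 scale, adjusted p = 0.00107). Ccnf, Casp1 and Zdhhc14 followed, with differences of 2.64, 0.95 and -0.95 and adjusted p of 0.194 to 0.218. Of these 5 only Ccnf, cyclin F, was called in WT (1.88 ± 0.33 on the log2 scale, adjusted p = 0.00428).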

How the data were processed

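Ribosomal RNA-depleted libraries were sequenced, trimmed by the authors with Cutadapt and aligned with STAR to mm10 (the same assembly as GRCm38). The annotation release is not given in the sources used here. The deposited files hold raw counts per gene made by the authors with STAR, without normalization, and the counts that ignore strand were used. Reads outside genes (21.2% to 28.4% of the total of the 9 WT libraries), ambiguous or mapping to several places were left out of library sizes. The counts cover 54146 genes, of which 54079 have a symbol. Gene positions and exon overlaps came from GENCODE vM21.

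Genes were filtered with filterByExpr (minimum count 10) and the quasi-likelihood method (edgeR 4.0.16, limma 3.58.1, R 4.3.3) was run in 1 model of 6 groups of 3 libraries, after TMM scaling, with Benjamini-Hochberg adjustment and a threshold of 0.05. The SE of a log2 fold change is its size over the square root of F. An exact permutation test of 3 against 3 cannot go below p = 0.1, and was not used. Log2 CPM for lists and components used a prior count of 2. Day 8 libraries were used to draw the interferon-γ lists. In simulated data for the WT comparison (16649 genes, 200 changed), 41% of genes changed by 1 on the log2 scale and 89% of those changed by 2 were recovered, with 8 false calls. The simulation gave a gene the same spread in every group, unlike the real libraries. It therefore checks the code and does not give the recovery or false calls of the real comparison.

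Named genes were the receptor and interferon genes, H3f3a, H3f3b and Lyz2, the 12 largest falls and 8 largest rises among called genes whose groups were apart and whose average log2 CPM reached 3 (411 lower and 732 higher), up to 4 members of smallest p in each list, and the 6 genes of smallest interaction p. The comparison, the 34 gene lists and the rule were chosen with earlier results of these data known. Same-numbered control and IFNAR1 antibody libraries had deviations that correlated at 0.107, 0.021 and 0.117 over 8968 genes, so the numbers were not taken to pair them. Same-numbered libraries with no antibody and control antibody correlated at 0.212, 0.112 and 0.452, so the numbers were taken to pair these, as seen in the data and not from the labels. The main model did not use this pairing, which entered only as the replicate block. Alternatives were DESeq2 1.42.0, RLE scaling, other filters, the strand column, smaller models, a replicate block, each replicate left out, a fold threshold and, chosen after seeing the data, limma voom with group weights. Some genes are not reported here.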

Additional observations from a re-analysis of the deposited data

How the results depend on the processing

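For IFNAR1 against control antibody in WT, where 1700 genes were called, DESeq2 called 3086 (1944 higher, 1142 lower), the model of the 9 WT libraries 606, the 6 libraries compared 0, and 979 had a log2 fold change of at least 1. Leaving out 1 library gave 290 (without control replicate 2) to 6488 (without IFNAR1 replicate 3). RLE scaling gave 1750, no filter 1948, a mean of at least 1 CPM 1871, the strand column 1551 and limma voom with group weights, added after seeing the data, 1160. The replicate block gave 2425 (1456 higher, 969 lower). As the numbers were not taken to pair these libraries (not every one correlated best with its own number), this block result is only a description.

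Control against no antibody (1530 called) gave 2470 with DESeq2, 4067 with limma, 2690 with only the groups compared, 216 with the 9 WT libraries, 1870 with the replicate block (712 higher, 1158 lower), 842 at a log2 fold change of at least 1, and 106 to 2425 with 1 library left out. IFNAR1 against no antibody (0 called) gave 12 without a filter, 1 with the strand column, 32 with DESeq2, 1 with the 9 WT libraries, 5 with the replicate block and 0 to 5 with 1 library left out. The interaction (0 called) gave 10 without a filter, 2 at a mean of at least 1 CPM, 50 with DESeq2, 1 with limma, 7 with the replicate block and 0 to 5 with 1 library left out.

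The median log2 fold change of genes raised by interferon-γ, 0.069, was 0.084 with RLE, 0.115 without a filter, 0.086 with DESeq2, 0.027 with limma, 0.043 with the replicate block, 0.1 for the 642 genes (of 1451) raised beyond 2, and 0.033 to 0.085 with 1 library left out. That of genes lowered by interferon-γ, 0.13, was 0.30 for the 394 (of 1397) lowered beyond 2, and 0.09 to 0.19 with 1 library left out. That of genes higher in cKO, -0.32, ranged from -0.55 to -0.20 with 1 library left out. Directions turned for stromal markers without control replicate 3 (from -0.777 to 0.658), and by smaller amounts for receptors and transducers (0.02) and guanylate-binding proteins (0) without a filter, for lipid handling with only the groups compared (-0.20), with limma (-0.041), with the replicate block (-0.029) and without IFNAR1 replicate 2 (-0.119, against up to 0.234 without replicate 3), for alternative activation without control replicate 3 (0.015), glycolysis without IFNAR1 replicate 1 (0.03), housekeeping genes with limma (-0.002) and without IFNAR1 replicate 2 (-0.075), neutrophil markers with the strand column (-0.1), the groups compared (-0.002), the 9 WT libraries (-0.013) and without IFNAR1 replicate 2 (-0.025), and for all genes with limma (-0.024), the replicate block (-0.009) and without IFNAR1 replicate 3 (-0.01, against up to 0.029 without control replicate 1).

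The cause of these changes was not tested. Of 151 named genes 79 were called, and 0 of these changed direction with any alternative run, though all 79 calls were lost with only the groups compared. Of the genes not called 14 changed direction with at least 1 alternative, among them Ifnar2, and Col3a1, Pdgfrb, Col6a1 and Sparc without control replicate 3. Control libraries were the shallowest of the WT libraries. There 3 counts are worth 0.21, 0.17 and 0.275 CPM in replicates 1, 2 and 3, and a lower value is within 3 counts.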
